A study of Populus ussuriensis with 12 samples.

Results

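Homeodomain-leucine zipper (HD-Zip) proteins are plant transcription factors that join a homeobox to a leucine zipper, and 62 of the 35747 genes in the authors' annotated leaf table belong to them here. They were taken as every gene whose UniProt description holds the words homeobox-leucine zipper protein, which matched 64 genes. A pair described as ATHB-7 (Potri.014G103000 and Potri.001G083700) was then left out. Messenger RNA came from leaves 7 and 8, counted from the shoot tip, of 70-day-old greenhouse plants of the poplar Populus ussuriensis in soil. Plants that overexpress the microRNA Pu-miR172d (OE) and wild type plants (WT) were used, and the series' title names drought and stomatal differentiation as its subject. The groups are OE drought, OE watered, WT drought and WT watered, with 3 libraries each, where drought means 4 days without watering and the labels name no allele or agent that all groups share. The sources used here do not name the promoter of the transgene or the number of OE lines.

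HD-Zip proteins bind DNA as dimers and fall into 4 classes. In Arabidopsis, class I members act in responses to drought, abscisic acid (ABA, the drought hormone) and light. Class II members act in shade avoidance and leaf patterning. Class III members set the upper side of the leaf and pattern the veins, under the control of other microRNAs than miR172, and class IV members specify the epidermis, including its hairs and stomata. By the names in their descriptions, 19 members are of class I, 17 of class II, 9 of class III and 17 of class IV, and 1 name, HAT7, was placed as another name of ATHB-3. The protein domain that the table lists for each gene, which the names did not use, was START for all 17 members of class IV and MEKHLA for 8 of the 9 of class III. Domains listed for the other classes were the homeobox or parts of the zipper (Homeobox for 18 and HALZ for 1 in class I, Homeobox for 7, HALZ for 7 and HD-ZIP_N for 3 in class II), and 1 member of class III was listed with Homeobox. No member is described as MERISTEM L1.

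Values are FPKM, fragment numbers divided by gene length and library total, so that levels can be set side by side between genes. Library totals recovered from the FPKM steps ran from 9682111 to 12131416 fragments, so that 1 FPKM over a kilobase rests on 9.68 to 12.1 fragments. A gene was tested if it reached 1 FPKM in at least 3 of the 12 libraries, which 25373 genes did. Differences are in log2(FPKM + 1) with their standard error, which understates the change of weak genes, and a change was called at an adjusted p under 0.05 in limma over all tested genes. The labels do not say that the replicates are separate plants, so that the p-values measure the spread between these libraries. WT drought replicate 6 was least like its group (mean correlation 0.926), and OE drought replicate 5 had the lowest median-of-ratios size factor, 0.815, with WT drought replicate 4 the highest, 1.24. The median difference of all tested genes was not at 0 but at -0.13 for drought in OE, 0.25 for drought in WT, 0.05 for OE against WT in watered leaves, -0.24 for OE against WT in drought leaves and -0.28 for the interaction. Leaf mesophyll markers (26 of 29 Rubisco small chain and antenna genes tested) summed to 198 to 1135 FPKM in OE drought leaves and 26302 to 38103 FPKM in OE watered leaves. Their sums were 2270 to 4038 FPKM in WT drought leaves and 38435 to 47002 FPKM in WT watered leaves, so that the watered leaves carried the markers of their label and the drought leaves far less. In drought against watered leaves, 25 of the 26 were lower in OE and 24 in WT, and 23 were lower in OE drought than in WT drought leaves. Every HD-Zip difference below that involves drought moved beside these sums, and their part in it was not tested. From bulk leaves, fewer cells of a type and less RNA per cell cannot be told apart.

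The HD-Zip set ran from genes at 0 to strong leaf genes. Of the 62 members 48 were tested (15 of class I, 15 of class II, 8 of class III and 10 of class IV), and of the 14 not tested 13 had no library at 1 FPKM. The exception was HDG11 Potri.017G144601, at 0.851, 1.1 and 0.356 FPKM in OE drought leaves, against 0, 0.186 and 0 FPKM in OE watered leaves. It had 17, 21 and 7 fragments in OE drought, 0, 2 and 0 in WT drought and 1, 0 and 0 in WT watered leaves. With no filter on low values it was called higher in OE drought than in OE watered leaves (0.72, adjusted p = 0.00115). OE drought was then also above WT drought (0.75, adjusted p = 0.00483), and its interaction passed (0.70, adjusted p = 0.0489). Strongest was class I, in which the HAT5 gene Potri.012G070900 stood at 178, 79.7 and 199 FPKM in OE drought, against 269.5, 354 and 209 in OE watered leaves. WT values were 206, 233 and 375 FPKM in WT drought, against 247, 201 and 226 in WT watered leaves. The other HAT5 gene, Potri.015G065400, came next and is described below, followed by ATHB-6 Potri.005G071900, whose Arabidopsis namesake damps ABA signalling, at 45.3, 9.46 and 49.2 FPKM in OE drought, against 221, 375 and 213 in OE watered leaves. WT libraries had 82.6, 60.2 and 70.2 FPKM in WT drought, against 223, 166 and 189 in WT watered leaves. For both genes with values here OE drought replicate 5 was the lowest library, and ATHB-6 was at least 166 FPKM in every watered library. Class II was led by HAT22 Potri.007G008200, class IV by both GLABRA 2 genes, and class III held no member above 16.2 FPKM. Several members are copies with the same description, and reads of near-identical copies can be split between them, so that the values of such a pair are uncertain to that extent.

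Summed over a class, drought and watered leaves ranked differently from class to class. Class II summed to 228 ± 29.3 FPKM in OE drought and 94.4 ± 26.2 FPKM in OE watered leaves, and to 185 ± 32 FPKM in WT drought and 59.2 ± 11.3 FPKM in WT watered leaves (mean ± SD, n = 3). Class IV summed to 69 ± 21.7 FPKM in OE drought and 153 ± 17.5 FPKM in OE watered leaves, and to 136 ± 4.43 FPKM in WT drought and 129 ± 1.92 FPKM in WT watered leaves. Class III summed to 28.4 ± 2.83 FPKM in OE drought and 68.9 ± 10.1 FPKM in OE watered leaves, and to 46.6 ± 15.7 FPKM in WT drought and 62.6 ± 7.5 FPKM in WT watered leaves. In class II both drought groups lay above both watered groups in every library. That sum leans on HAT22 Potri.007G008200, which averaged 80.7 FPKM over all libraries, with 12.5 FPKM for the next strongest member, HAT3 Potri.014G045100. In OE, 4 of the 15 tested members of class II were called higher in drought and 3 lower, with a median difference of 0.11. The OE drought libraries lay below all others in class IV. Its strongest members were the GLABRA 2 genes Potri.001G184100 and Potri.003G052400, with means of 38.0 and 31.2 FPKM over all libraries. The values of Potri.001G184100 are uncertain through an overlapping gene, as given below. In class I, with 602 ± 151 FPKM in OE drought, 833 ± 195 FPKM in OE watered, 807 ± 24.3 FPKM in WT drought and 657 ± 74.8 FPKM in WT watered leaves, a few strong genes set the sum, and OE drought replicate 5 was lowest at 429 FPKM.

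**Figure D1:**
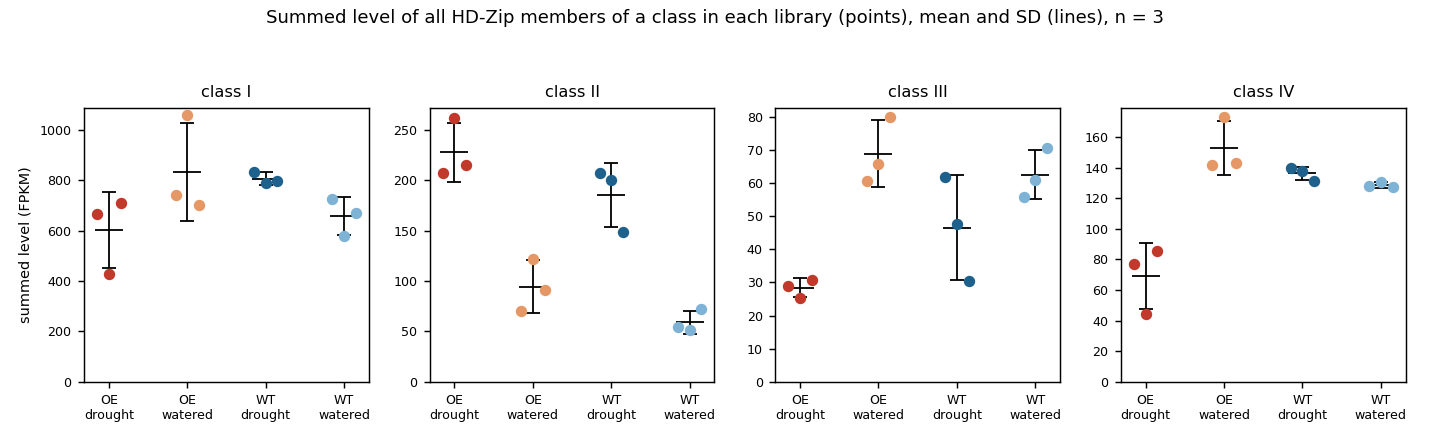
Summed level in FPKM of all members of each HD-Zip class (y axis) in OE drought, OE watered, WT drought and WT watered leaves (x axis), with points for the 3 libraries of a group and lines for the mean and SD. In class IV the 3 OE drought libraries sit at 44.3, 77.3 and 85.4 FPKM, under every other library, while in class II all drought libraries sit above all watered ones.

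Drought moved most of the tested members in each genotype. With all libraries and no rescaling, more were lower than higher in OE and more higher than lower in WT, as among all tested genes. In OE, 8 of the 48 were higher and 28 lower in drought than in watered leaves, beside 27.8% higher and 35.0% lower among all tested genes. In WT, 17 were higher and 13 lower, beside 33.9% higher and 21.7% lower among all tested genes. The members' median difference was -0.91 in OE, against -0.13 over all tested genes, and 0.06 in WT, against 0.25 over all tested genes. Drought and watered libraries did not overlap for 40 of the 48 in OE, beside 70.0% of all tested genes. In WT they did not overlap for 34 of the 48, beside 62.9% of all tested genes. Without WT drought replicate 4 the WT split was 12 higher and 13 lower, and with median-of-ratios scaling it was 15 higher and 20 lower, beside 22.5% higher and 27.2% lower among all tested genes. The WT balance of the whole set therefore depends on the scaling. The 7 members that were called lower in WT under that scaling but not without it were ATHB-6 Potri.007G097100, HOX27 Potri.001G229700, REVOLUTA Potri.009G014500, ATHB-15 Potri.003G050100, ANTHOCYANINLESS 2 Potri.014G075200, HDG11 Potri.015G034100 and HDG5 Potri.003G096000 (adjusted p 0.00348 to 0.0366). All but HDG5 are given below by their value without it. By class, OE had 2 higher and 11 lower of 15 in class I, 4 and 3 of 15 in class II, 1 and 7 of 8 in class III and 1 and 7 of 10 in class IV. WT had 3 higher and 9 lower in class I, 10 and 2 in class II, 1 and 2 in class III and 3 and 0 in class IV. The WT count of class III was 1 higher and 4 lower both with median-of-ratios scaling and when scaled outside the 100 most abundant genes. The OE count of lower class II members was 5 without WT drought replicate 6. Set side by side, 13 members fell in both genotypes and 8 rose in both. A further 14 fell in OE without passing the test in WT, 8 rose in WT without passing it in OE, 1 (PROTODERMAL FACTOR 2 Potri.004G020400) fell in OE and rose in WT, and 4 passed in neither. Such a pair of calls is no test of a difference between genotypes, which the interaction gives further on.

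**Figure D2:**
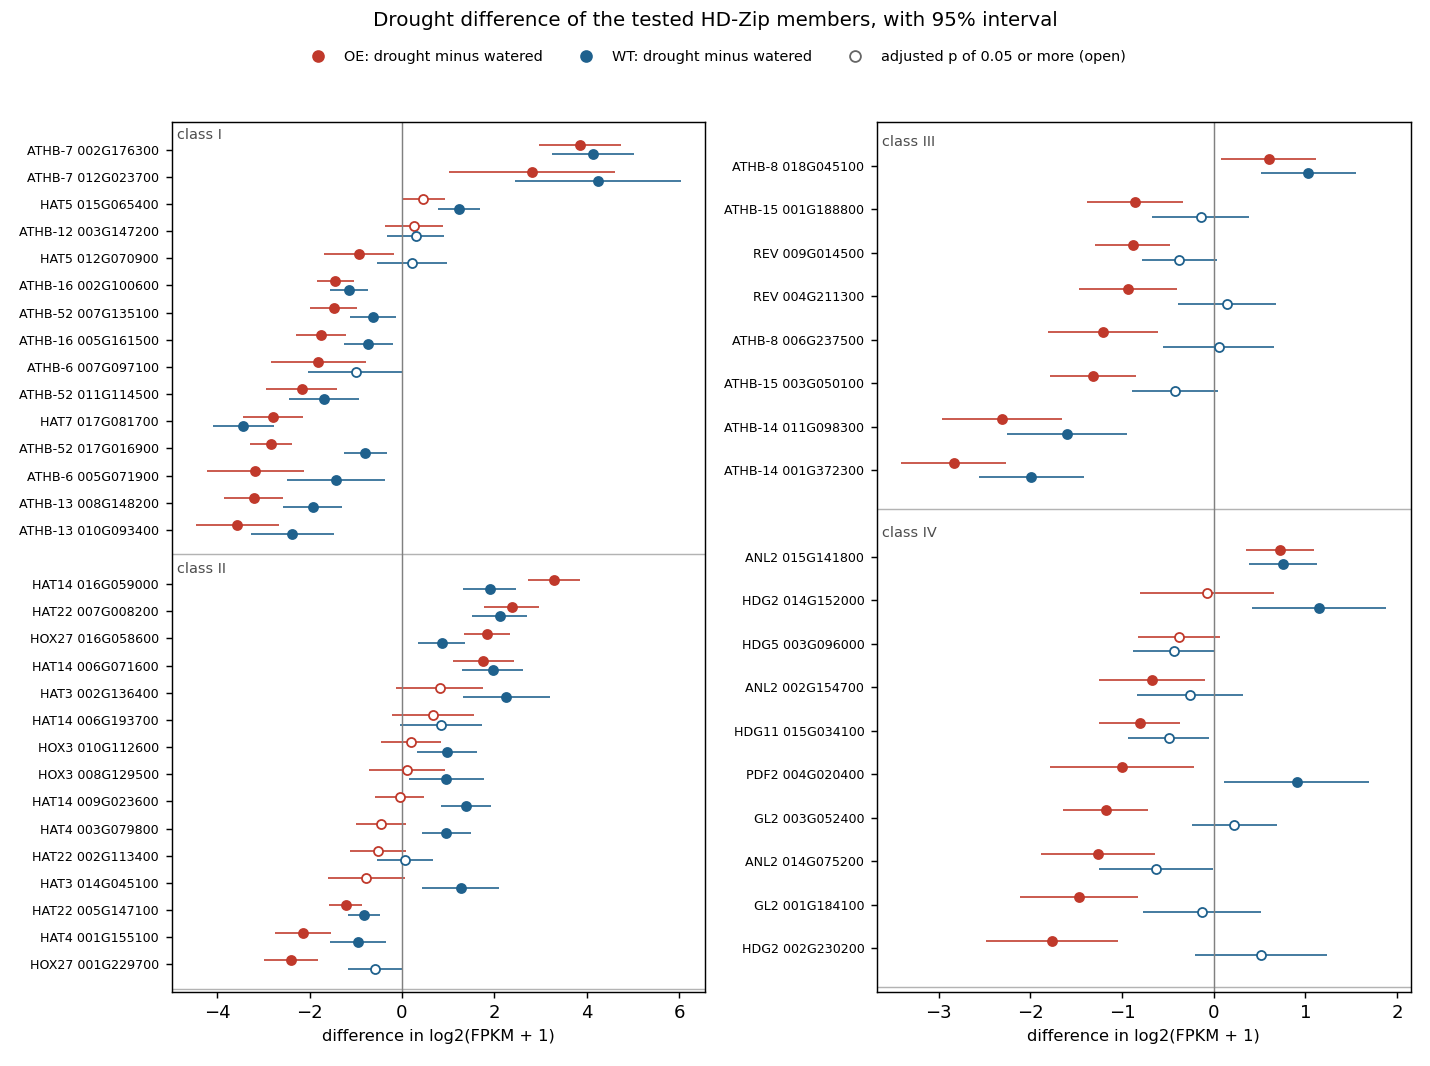
Drought minus watered difference in log2(FPKM + 1) (x axis) of each of the 48 tested HD-Zip members (y axis), in OE (red) and WT (blue), with 95% intervals and filled points where the adjusted p was under 0.05. Most class I members lie left of 0 in both genotypes and most class II members lie right of 0 in WT, while in classes III and IV the red points lie mainly left of 0 and the blue points nearer to it.

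Class I held both the strongest increases and the strongest decreases. Its other ATHB-7 genes, homologues of an Arabidopsis factor that ABA and drought induce, rose in both genotypes. Potri.002G176300 stood at 198, 159.7 and 204 FPKM in OE drought, against 12.1, 21.6 and 6.17 in OE watered leaves. WT leaves had 186, 143 and 105 FPKM in WT drought, against 10.4, 3.74 and 8.57 in WT watered leaves. All drought libraries were at least 105 FPKM and all watered ones at most 21.6 FPKM, and the gene rose in OE (log2 difference 3.86 ± 0.40, adjusted p = 7.27e-06) and in WT (log2 difference 4.14 ± 0.40, adjusted p = 8.59e-06). Potri.012G023700 stood at 45.4, 35.4 and 46.2 FPKM in OE drought, against 7.38, 20.1 and 0.269 in OE watered leaves. WT levels were 43.3, 41.4 and 29.6 FPKM in WT drought, against 4.16, 0 and 0.635 in WT watered leaves. It rose in OE (log2 difference 2.83 ± 0.82, adjusted p = 0.0102) and in WT (log2 difference 4.25 ± 0.82, adjusted p = 0.00112), with watered OE replicate 2 well above the other watered libraries. The ATHB-12 gene Potri.003G147200, whose Arabidopsis namesake is also drought-induced, reached at most 1.69 FPKM in every library and was not called in OE (log2 difference 0.26 ± 0.28, adjusted p = 0.439) or in WT (log2 difference 0.29 ± 0.28, adjusted p = 0.395).

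The most negative drought difference of class I was that of an ATHB-13 gene in OE and of HAT7 in WT. ATHB-13, a factor of leaf and root growth, had 2 genes that changed alike. Potri.008G148200 stood at 0.294, 0.132 and 0.385 FPKM in OE drought, against 7.76, 8.16 and 18.9 in OE watered leaves. WT leaves held 1.93, 1.79 and 3.01 FPKM in WT drought, against 12, 9.02 and 12.9 in WT watered leaves. The gene fell in OE (log2 difference -3.21 ± 0.29, adjusted p = 2.61e-06) and in WT (log2 difference -1.93 ± 0.29, adjusted p = 2.18e-04). Potri.010G093400 stood at 1.27, 0.19 and 1.76 FPKM in OE drought, against 18.1, 18 and 32.8 in OE watered leaves. In WT it had 2.32, 2.36 and 8.25 FPKM in WT drought, against 22.8, 22.7 and 24.3 in WT watered leaves. Drought leaves were lower in OE (log2 difference -3.56 ± 0.41, adjusted p = 1.51e-05) and in WT (log2 difference -2.37 ± 0.41, adjusted p = 5.22e-04), where replicate 6 was the highest drought library. HAT7 Potri.017G081700, at 0, 0.108 and 0.105 FPKM in OE drought, against 4.81, 4.1 and 12.7 in OE watered leaves, and 0, 0.108 and 0.157 in WT drought, against 11.8, 10 and 10.4 in WT watered leaves, was at or near 0 in all drought libraries. It fell by 2.79 on the log2 scale in OE and by 3.43 in WT (adjusted p = 8.81e-06 and 3.84e-06).

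ATHB-6 Potri.005G071900, whose values stand above, fell in OE (log2 difference -3.17 ± 0.48, adjusted p = 1.3e-04) and in WT (log2 difference -1.43 ± 0.48, adjusted p = 0.0252). Its WT call did not hold with any 1 left out of WT watered replicates 1 and 3 and WT drought replicate 5 (adjusted p 0.0549 to 0.072). Its copy Potri.007G097100 stood at 31.2, 7.52 and 40.9 FPKM in OE drought, against 66.1, 109 and 65.6 in OE watered leaves. WT values were 41.1, 28.2 and 43.6 FPKM in WT drought, against 82.9, 61.7 and 82.8 in WT watered leaves. It fell in OE (log2 difference -1.81 ± 0.47, adjusted p = 0.00551) and missed the threshold in WT (log2 difference -1.0 ± 0.47, adjusted p = 0.0899). ATHB-16, which limits leaf growth under blue light in Arabidopsis, fell in both genotypes at Potri.002G100600, with a log2 difference of -1.44 ± 0.19, adjusted p = 3.58e-05 in OE and -1.15 ± 0.19, adjusted p = 3.29e-04 in WT. Its second gene, Potri.005G161500, fell in OE (log2 difference -1.76 ± 0.25, adjusted p = 6.91e-05) and in WT (log2 difference -0.72 ± 0.25, adjusted p = 0.0258), and the WT call did not hold with any 1 left out of WT watered replicates 1 and 2 and WT drought replicates 5 and 6 (adjusted p 0.0509 to 0.0884).

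ATHB-52 acts in light-grown seedlings of Arabidopsis, and 3 of its 4 genes here were tested. Potri.011G114500 stood at 0.692, 0.263 and 1.34 FPKM in OE drought, against 6.34, 11.7 and 3.89 in OE watered leaves. WT libraries had 0.131, 0.98 and 0.634 FPKM in WT drought, against 3.68, 3.26 and 5.12 in WT watered leaves. It fell in OE (log2 difference -2.17 ± 0.35, adjusted p = 2.04e-04) and in WT (log2 difference -1.69 ± 0.35, adjusted p = 0.00173), and drought and watered libraries did not overlap in either genotype. Potri.007G135100 fell in OE (log2 difference -1.48 ± 0.23, adjusted p = 1.55e-04) and in WT (log2 difference -0.62 ± 0.23, adjusted p = 0.0363), where no library passed 1.22 FPKM and the call did not hold with any 1 left out of WT watered replicates 1 and 3 and WT drought replicates 4, 5 and 6 (adjusted p 0.0501 to 0.117) and without the least alike library of 3 groups (adjusted p = 0.0634). The remaining one, Potri.017G016900, is described with the genotype differences. The HAT5 genes are homologues of the Arabidopsis leaf and hypocotyl regulator ATHB-1. Potri.015G065400 stood at 164, 134 and 163 FPKM in OE drought, against 102, 112 and 118 in OE watered leaves. WT leaves had 264, 272 and 157 FPKM in WT drought, against 96.9, 88.8 and 97.9 in WT watered leaves. Its OE difference was 0.47 ± 0.21, adjusted p = 0.0699 (0.0178 with median-of-ratios scaling), and it rose in WT (log2 difference 1.24 ± 0.21, adjusted p = 4.46e-04). Potri.012G070900 fell in OE (log2 difference -0.94 ± 0.35, adjusted p = 0.0335) and was not called in WT (log2 difference 0.22 ± 0.35, adjusted p = 0.603). That OE call did not hold with any 1 left out of OE watered replicates 1 and 2 and OE drought replicate 5 (adjusted p 0.0717 to 0.137) and in a fit of only the groups compared or without the least alike library of 3 groups (adjusted p 0.0571 to 0.126).

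**Figure D3:**
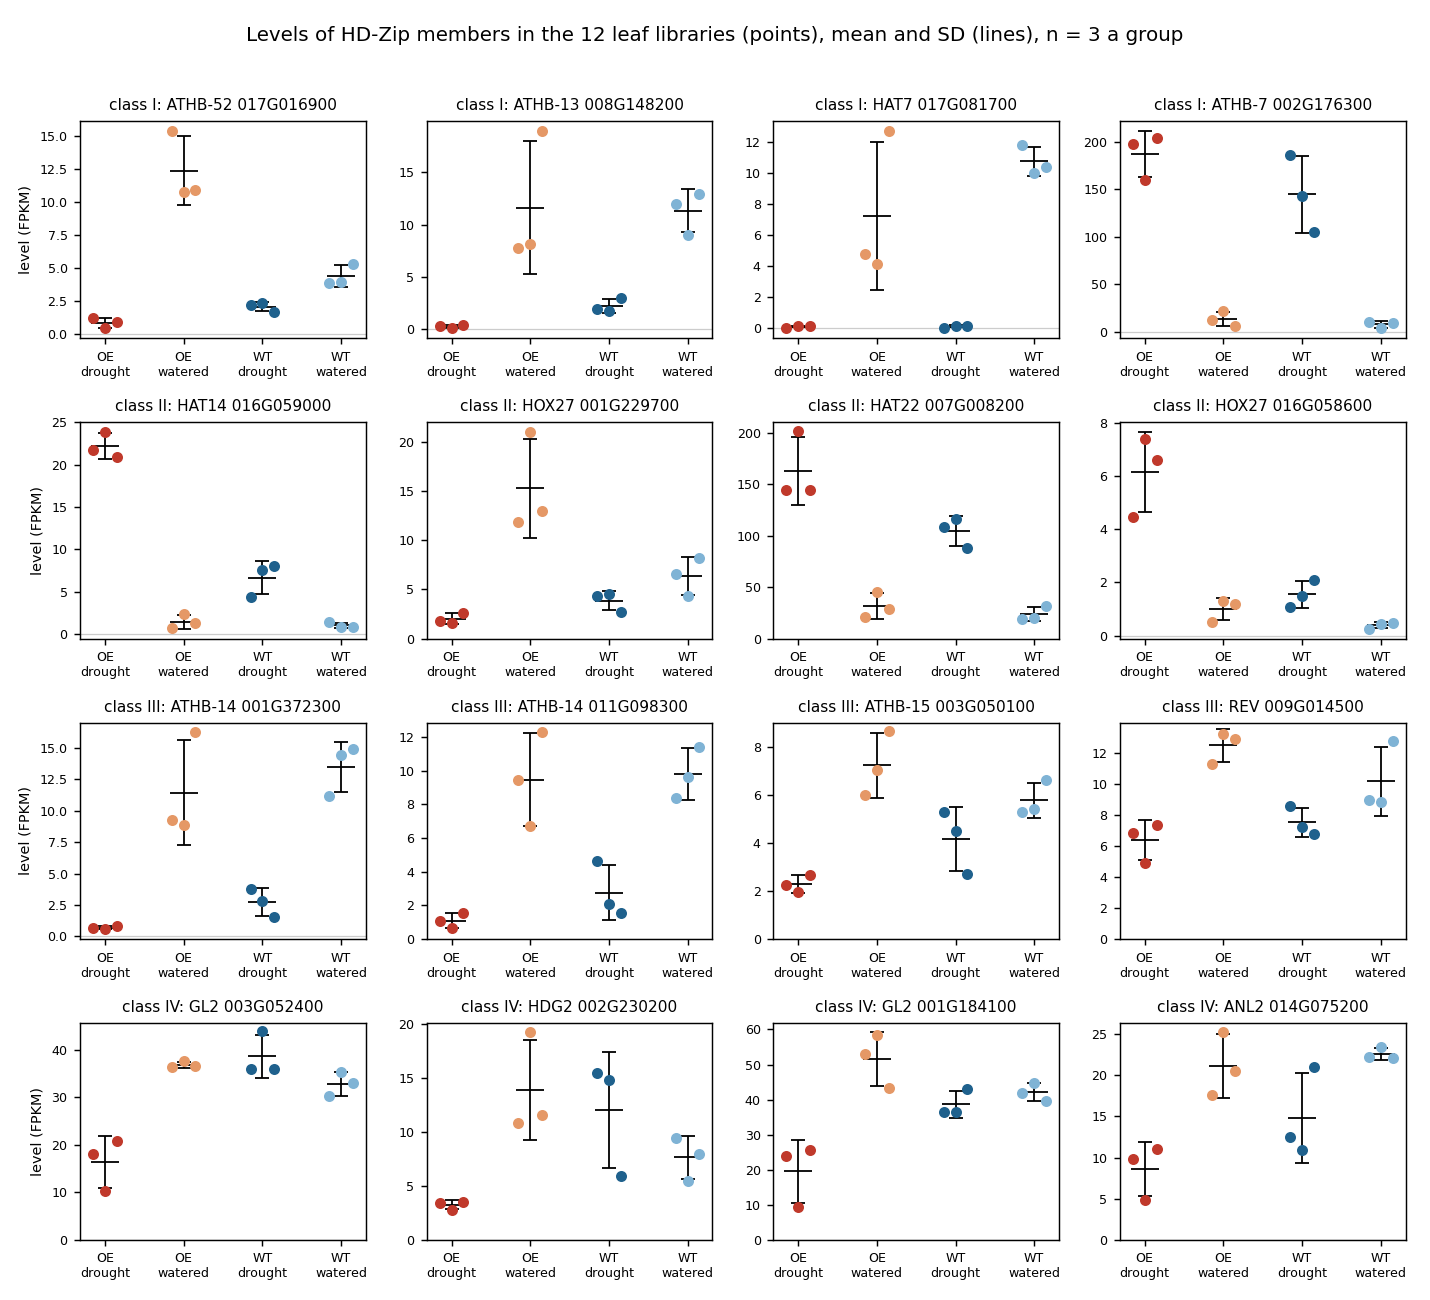
Levels in FPKM (y axes, each panel with its own scale) in OE drought, OE watered, WT drought and WT watered leaves (x axes) of the 4 members of each class with the lowest adjusted p in either drought comparison, with points for the 3 libraries and lines for the mean and SD. The panels show drought libraries far above watered ones for ATHB-7 and HAT22 and near 0 for HAT7. For ATHB-13 the OE drought libraries lie near 0, with the WT drought ones between them and the watered ones. Both GLABRA 2 genes have the OE drought libraries alone at the bottom.

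Class II was the class in which WT members mostly rose. The strongest was HAT22 Potri.007G008200, homologue of an ABA-induced Arabidopsis factor of leaf growth and senescence, at 144, 201 and 144 FPKM in OE drought, against 21.2, 45.1 and 28.6 in OE watered leaves. WT levels were 108, 116 and 88.3 FPKM in WT drought, against 19.2, 20.2 and 31.6 in WT watered leaves. Every drought library was above every watered one, and the gene rose in OE (log2 difference 2.38 ± 0.27, adjusted p = 1.49e-05) and in WT (log2 difference 2.12 ± 0.27, adjusted p = 6.59e-05). Another HAT22 gene, Potri.005G147100, moved the other way, at 0, 0.0543 and 0 FPKM in OE drought, against 1.06, 1.35 and 1.74 in OE watered leaves. WT leaves held 0, 0 and 0.0524 FPKM in WT drought, against 0.597, 1.04 and 0.781 in WT watered leaves. It fell in OE (log2 difference -1.22 ± 0.16, adjusted p = 4.38e-05) and in WT (log2 difference -0.82 ± 0.16, adjusted p = 0.00118), with no library above 1.74 FPKM. A further one, Potri.002G113400, was not called in OE (log2 difference -0.52 ± 0.28, adjusted p = 0.122) or in WT (log2 difference 0.07 ± 0.28, adjusted p = 0.845).

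HAT14 and HOX27 are class II names with less known roles, HOX27 being a rice name. On chromosome 16, HAT14 Potri.016G058400, HOX27 Potri.016G058600 and HAT14 Potri.016G059000 lie in this order with gaps of 8854 and 61036 bp between them in the authors' table, for which the sources used here name no genome build. HAT14 Potri.016G059000 (chromosome 16, 4056974 to 4059276, plus strand) stood at 21.7, 23.9 and 20.9 FPKM in OE drought, against 0.726, 2.33 and 1.27 in OE watered leaves. In WT it had 4.41, 7.5 and 8.02 FPKM in WT drought, against 1.37, 0.857 and 0.803 in WT watered leaves. It rose in OE (log2 difference 3.3 ± 0.26, adjusted p = 8.51e-07) and in WT (log2 difference 1.9 ± 0.26, adjusted p = 1.0e-04), and the OE drought libraries lay above all others. HOX27 Potri.016G058600 (chromosome 16, 3993509 to 3995937, plus strand) stood at 4.47, 7.4 and 6.6 FPKM in OE drought, against 0.506, 1.29 and 1.2 in OE watered leaves. WT values were 1.09, 1.47 and 2.1 FPKM in WT drought, against 0.257, 0.44 and 0.467 in WT watered leaves. It rose in OE (log2 difference 1.84 ± 0.23, adjusted p = 3.05e-05) and in WT (log2 difference 0.86 ± 0.23, adjusted p = 0.00794), in the same order of groups as HAT14 Potri.016G059000. It overlaps Potri.016G058500, described as FAR1-RELATED SEQUENCE 5, by 261 bp on the same strand, and that gene averaged 0.248 FPKM. The remaining gene of the 3, Potri.016G058400, had no library above 0.153 FPKM. HAT14 Potri.006G071600 stood at 2.32, 3.32 and 3.47 FPKM in OE drought, against 0, 0.192 and 0.384 in OE watered leaves. WT libraries had 5.57, 2.66 and 8.91 FPKM in WT drought, against 0.445, 0.731 and 0.582 in WT watered leaves. It rose in OE (log2 difference 1.76 ± 0.30, adjusted p = 3.28e-04) and in WT (log2 difference 1.97 ± 0.30, adjusted p = 2.32e-04). HOX27 Potri.001G229700 went down instead, at 1.83, 1.59 and 2.64 FPKM in OE drought, against 11.8, 21.1 and 13 in OE watered leaves. WT leaves had 4.33, 4.5 and 2.75 FPKM in WT drought, against 6.57, 4.37 and 8.17 in WT watered leaves. Its level fell in OE (log2 difference -2.41 ± 0.27, adjusted p = 1.16e-05) with a WT difference of -0.59 ± 0.27, adjusted p = 0.0804.

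HAT4, known as ATHB-2, is the shade avoidance factor of Arabidopsis, and HAT3 acts with it in shade and leaf polarity. HAT3 Potri.002G136400 stood at 6.06, 3.19 and 7.93 FPKM in OE drought, against 1.87, 6.05 and 1.37 in OE watered leaves. WT levels were 15.8, 6.99 and 7.67 FPKM in WT drought, against 1.44, 0.65 and 1.61 in WT watered leaves. Its OE difference was 0.82 ± 0.43, adjusted p = 0.116, and it rose in WT (log2 difference 2.26 ± 0.43, adjusted p = 0.00101). Its OE groups overlapped through watered replicate 2. HAT3 Potri.014G045100 stood at 9.0, 4.51 and 10.9 FPKM in OE drought, against 13.3, 14.7 and 13.5 in OE watered leaves. WT leaves held 31.8, 22 and 8.79 FPKM in WT drought, against 6.19, 7.3 and 7.75 in WT watered leaves. Its OE difference was -0.77 ± 0.38, adjusted p = 0.0975, and it rose in WT (log2 difference 1.27 ± 0.38, adjusted p = 0.0141), a call that did not hold without WT drought replicate 4 (adjusted p = 0.0631). HAT4 Potri.003G079800 stood at 7.3, 3.88 and 8.35 FPKM in OE drought, against 8.23, 8.35 and 10.3 in OE watered leaves. In WT it had 16.8, 15.8 and 10.6 FPKM in WT drought, against 7.08, 5.96 and 7.31 in WT watered leaves. Its OE difference was -0.45 ± 0.25, adjusted p = 0.126, and it rose in WT (log2 difference 0.96 ± 0.25, adjusted p = 0.00592). HAT4 Potri.001G155100 fell in OE (log2 difference -2.15 ± 0.28, adjusted p = 3.72e-05) and in WT (log2 difference -0.95 ± 0.28, adjusted p = 0.0122), where the call did not hold without WT watered replicate 3 (adjusted p = 0.0505). Both genes named after rice HOX3, Potri.010G112600 and Potri.008G129500, were not called in OE but rose in WT by 0.98 and 0.96 (adjusted p = 0.0145 and 0.0455). The first call did not hold with any 1 left out of WT watered replicate 1 and WT drought replicates 4 and 5 (adjusted p 0.0573 to 0.0613), and the second with any 1 left out of WT watered replicates 2 and 3, WT drought replicates 4 and 5 and OE drought replicates 4 and 6 (adjusted p 0.0524 to 0.131) and with a pseudocount of 0.1, with no filter on low values, with median-of-ratios scaling or when scaled outside the 100 most abundant genes (adjusted p 0.0509 to 0.12).

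Among the class III genes, which direct upper leaf fate and veins, the fall in OE took in 7 of the 8 tested. The ATHB-14 genes, homologues of PHABULOSA, fell in both genotypes. Potri.001G372300 stood at 0.682, 0.571 and 0.81 FPKM in OE drought, against 9.25, 8.86 and 16.2 in OE watered leaves, and 3.79, 2.81 and 1.58 in WT drought, against 11.2, 14.4 and 14.9 in WT watered leaves, with no overlap of drought and watered libraries. Its level fell in OE (log2 difference -2.84 ± 0.26, adjusted p = 2.77e-06) and in WT (log2 difference -1.99 ± 0.26, adjusted p = 7.71e-05). Potri.011G098300 stood at 1.08, 0.647 and 1.55 FPKM in OE drought, against 9.44, 6.7 and 12.3 in OE watered leaves. WT values were 4.63, 2.07 and 1.56 FPKM in WT drought, against 8.36, 9.63 and 11.4 in WT watered leaves. It fell in OE (log2 difference -2.31 ± 0.30, adjusted p = 4.01e-05) and in WT (log2 difference -1.6 ± 0.30, adjusted p = 9.27e-04). Another, weak ATHB-14 gene, Potri.001G372200, overlaps Potri.001G372300 by 1650 bp on the other strand and was not tested, and the library kit does not mark strand.

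REVOLUTA, a factor of adaxial fate and of fibres, had 2 genes that fell in OE and were not called in WT without rescaling. Potri.009G014500 stood at 6.89, 4.93 and 7.37 FPKM in OE drought, against 11.3, 13.3 and 13 in OE watered leaves. WT libraries had 8.63, 7.22 and 6.82 FPKM in WT drought, against 8.99, 8.84 and 12.8 in WT watered leaves. Its drought difference was -0.88 ± 0.19, adjusted p = 0.00145 in OE and -0.38 ± 0.19, adjusted p = 0.106 in WT, where both rescalings gave a call (adjusted p 0.00348 to 0.0412). Potri.004G211300 had a drought difference of -0.93 ± 0.24, adjusted p = 0.00563 in OE and 0.15 ± 0.24, adjusted p = 0.624 in WT, and the OE call did not hold without the least alike library of 3 groups (adjusted p = 0.0585), a choice described with the processing. The ATHB-15 genes, homologues of CORONA, went the same way. Potri.003G050100 stood at 2.24, 1.95 and 2.68 FPKM in OE drought, against 5.98, 7.06 and 8.68 in OE watered leaves. WT leaves had 5.27, 4.52 and 2.7 FPKM in WT drought, against 5.31, 5.42 and 6.62 in WT watered leaves. Its drought difference was -1.32 ± 0.22, adjusted p = 2.29e-04 in OE and -0.42 ± 0.22, adjusted p = 0.115 in WT, again with a WT call under both rescalings (adjusted p 0.0129 to 0.0435). Potri.001G188800 had a drought difference of -0.85 ± 0.24, adjusted p = 0.0084 in OE and -0.14 ± 0.24, adjusted p = 0.631 in WT.

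ATHB-8, the gene of early vein cells, had 2 copies that moved in different directions in OE. Potri.018G045100 stood at 7.61, 8.22 and 8.67 FPKM in OE drought, against 4.11, 5.72 and 5.41 in OE watered leaves. WT levels were 11.3, 8.62 and 5.17 FPKM in WT drought, against 3.04, 3.04 and 4.26 in WT watered leaves. In OE the call of a rise (log2 difference 0.60 ± 0.24, adjusted p = 0.0432) ended with any 1 left out of WT watered replicates 1 and 2, WT drought replicate 5, OE watered replicates 1 and 3 and OE drought replicates 4, 5 and 6 (adjusted p 0.0522 to 0.148) and with no filter on low values (adjusted p = 0.0583). In WT the gene rose with a log2 difference of 1.03 ± 0.24, adjusted p = 0.00328. Potri.006G237500 stood at 3.72, 4.24 and 3.68 FPKM in OE drought, against 8.51, 9.32 and 13.5 in OE watered leaves. WT leaves held 13.4, 11.9 and 5.48 FPKM in WT drought, against 7.76, 9.9 and 10.3 in WT watered leaves. In OE every drought library was under every watered one and the gene fell (log2 difference -1.21 ± 0.28, adjusted p = 0.00237). In WT the drought libraries lay on both sides of the watered ones, with replicate 6 below them, and no change was called (log2 difference 0.05 ± 0.28, adjusted p = 0.883).

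Class IV, the epidermal class, fell in OE for 7 of 10 tested members, with none lower in WT. The WT count was 3 higher and 0 lower, and became 1 and 1 without WT drought replicate 4 and 2 and 3 with median-of-ratios scaling. GLABRA 2, which drives leaf hairs and represses root hairs in Arabidopsis, had 2 genes. Potri.003G052400 stood at 18.1, 10.3 and 20.8 FPKM in OE drought, against 36.5, 37.7 and 36.6 in OE watered leaves. In WT it had 36, 44 and 36 FPKM in WT drought, against 30.3, 35.3 and 33 in WT watered leaves. The OE drought libraries lay at most at 20.8 FPKM and every other library at 30.3 FPKM or more, and the gene fell in OE (log2 difference -1.18 ± 0.21, adjusted p = 4.62e-04) with a WT difference of 0.22 ± 0.21, adjusted p = 0.388. Potri.001G184100 stood at 23.8, 9.23 and 25.5 FPKM in OE drought, against 53.1, 58.4 and 43.3 in OE watered leaves. WT values were 36.3, 36.5 and 43.1 FPKM in WT drought, against 42, 44.7 and 39.7 in WT watered leaves. Drought leaves were lower in OE (log2 difference -1.47 ± 0.29, adjusted p = 1.0e-03) and had a WT difference of -0.13 ± 0.29, adjusted p = 0.737. It overlaps Potri.001G184000, described as the chloroplast 30S ribosomal protein S17, by 1937 bp on the other strand. That neighbour averaged 88.6 FPKM, and without strand its reads and those of GLABRA 2 cannot be told apart, so that the values of Potri.001G184100 are uncertain.

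HDG2 promotes stomata and leaf hair form in Arabidopsis, and its 2 genes differed in their calls with all libraries. Potri.002G230200 stood at 3.44, 2.8 and 3.52 FPKM in OE drought, against 10.8, 19.2 and 11.5 in OE watered leaves. WT libraries had 15.4, 14.8 and 5.87 FPKM in WT drought, against 9.46, 5.45 and 7.97 in WT watered leaves. It fell in OE (log2 difference -1.77 ± 0.33, adjusted p = 6.01e-04), where drought and watered libraries did not overlap, and was not called in WT (log2 difference 0.52 ± 0.33, adjusted p = 0.197), where drought replicates 4 and 5 were above and replicate 6 within the watered range. Potri.014G152000 stood at 8.46, 8.4 and 8.83 FPKM in OE drought, against 6.88, 12.9 and 8.29 in OE watered leaves. WT leaves had 19.1, 15.3 and 5.99 FPKM in WT drought, against 5.07, 4.19 and 5.66 in WT watered leaves. Its OE difference was -0.07 ± 0.34, adjusted p = 0.859, and it rose in WT (log2 difference 1.15 ± 0.34, adjusted p = 0.0122), a call that did not hold without WT drought replicate 4 (adjusted p = 0.0554). Without WT drought replicate 6, Potri.002G230200 was called higher in WT drought leaves (log2 difference 0.93, adjusted p = 0.0106). In that fit Potri.014G152000 was lower in OE drought than in WT drought leaves (-0.92, adjusted p = 0.0105). The interaction of Potri.014G152000 passed there as well (-1.68, adjusted p = 0.00395).

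PROTODERMAL FACTOR 2 Potri.004G020400, which keeps the identity of the outer cell layer in Arabidopsis, stood at 0.954, 0.872 and 1.58 FPKM in OE drought, against 1.92, 5.05 and 3.25 in OE watered leaves. WT levels were 6.18, 5.23 and 1.89 FPKM in WT drought, against 2.36, 0.984 and 1.94 in WT watered leaves. It was called lower in OE (log2 difference -1.0 ± 0.36, adjusted p = 0.030) and higher in WT (log2 difference 0.91 ± 0.36, adjusted p = 0.0499). The OE call did not hold with any 1 left out of OE watered replicates 2 and 3 and OE drought replicates 4 and 5 (adjusted p 0.0644 to 0.117) and without the least alike library of 3 groups (adjusted p = 0.0802). The WT call did not hold with any 1 left out of WT watered replicates 1, 2 and 3, WT drought replicates 4 and 5, OE watered replicate 3 and OE drought replicates 4, 5 and 6 (adjusted p 0.0506 to 0.18) and with a pseudocount of 0.1, with a pseudocount of 0.5, with no filter on low values, with median-of-ratios scaling, when scaled outside the 100 most abundant genes, with voom on recovered fragments, in a fit of only the groups compared or with a robust variance (adjusted p 0.0513 to 0.106).

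The ANTHOCYANINLESS 2 genes, named for a factor of pigment in the layer under the epidermis, split as well. Potri.014G075200 stood at 9.78, 4.87 and 11.1 FPKM in OE drought, against 17.6, 25.3 and 20.6 in OE watered leaves. WT leaves held 12.5, 10.9 and 21.1 FPKM in WT drought, against 22.2, 23.4 and 22.2 in WT watered leaves. The gene fell in OE (log2 difference -1.26 ± 0.28, adjusted p = 0.00215), with a WT difference of -0.63 ± 0.28, adjusted p = 0.0783. Potri.015G141800 was weak, at 1.17, 1.2 and 1.56 FPKM in OE drought, against 0.49, 0.401 and 0.295 in OE watered leaves. In WT it had 1.49, 1.24 and 0.763 FPKM in WT drought, against 0.298, 0.178 and 0.325 in WT watered leaves. The gene rose in OE (log2 difference 0.72 ± 0.17, adjusted p = 0.00284) and in WT (log2 difference 0.76 ± 0.17, adjusted p = 0.00282). Potri.002G154700 fell in OE (log2 difference -0.67 ± 0.27, adjusted p = 0.0432), a call that did not hold with any 1 left out of WT watered replicates 1, 2 and 3, WT drought replicate 4, OE watered replicates 1 and 3 and OE drought replicate 5 (adjusted p 0.0529 to 0.181) and with no filter on low values, with median-of-ratios scaling or in a fit of only the groups compared (adjusted p 0.0545 to 0.0679). HDG11 Potri.015G034100, whose Arabidopsis namesake acts in hair branching, fell in OE (log2 difference -0.81 ± 0.20, adjusted p = 0.00441), with a WT difference of -0.49 ± 0.20, adjusted p = 0.0583. HDG5 Potri.003G096000 was called in neither genotype with all libraries and no rescaling. In WT it was called lower with median-of-ratios scaling (log2 difference -0.56, adjusted p = 0.0366) and without OE watered replicate 3 (-0.44, adjusted p = 0.0236).

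Without drought 1 member passed the test between genotypes. In watered leaves 1 of the 48 members was higher in OE and 0 lower, beside 0.0985% higher and 0.0394% lower among all tested genes, and 10 members (20.8%) had an unadjusted p under 0.05, beside 8.97% of all tested genes. Groups did not overlap for 13 of the 48, beside 17.5% of all tested genes. The one called was ATHB-52 Potri.017G016900, at 15.4, 10.8 and 11 FPKM in OE watered leaves, against 3.86, 3.96 and 5.36 FPKM in WT watered leaves. All OE watered libraries lay above all WT watered ones, with log2 difference 1.3 ± 0.21, adjusted p = 0.0393. The call did not hold with any 1 left out of WT watered replicates 1, 2 and 3, WT drought replicates 4 and 5, OE watered replicates 1 and 2 and OE drought replicates 4 and 6 (adjusted p 0.0598 to 0.28) and with a pseudocount of 0.1, with a pseudocount of 0.5, with no filter on low values, with median-of-ratios scaling, with voom on recovered fragments, in a fit of only the groups compared or with the replicate number as a block (adjusted p 0.0525 to 0.235). Without OE watered replicate 3 a second member was called, so that 1 was higher and 1 lower. The largest differences not called were 1.58 for ATHB-7 Potri.012G023700 (unadjusted 95% interval -0.22 to 3.37) and 1.14 for HOX27 Potri.001G229700 (unadjusted 95% interval 0.55 to 1.72). Of the ATHB-7 pair left out of the set, Potri.014G103000 stood at 1242, 1854 and 1210.2 FPKM in OE watered leaves, against 14.4, 2.21 and 11.5 FPKM in WT watered leaves. Potri.001G083700 stood at 5.39, 3.7 and 4.87 FPKM in OE watered leaves, against 1.78, 2.48 and 1.6 FPKM in WT watered leaves. In drought leaves Potri.014G103000 averaged 1332 FPKM in OE and 725 FPKM in WT. Potri.001G083700 went the other way there, with 26.6 FPKM in OE and 160 FPKM in WT.

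Under drought the genotypes stood further apart. In drought leaves 2 of the 48 members were higher in OE and 13 lower, beside 9.23% higher and 20.4% lower among all tested genes, and the members' median difference was -0.60, against -0.24 over all tested genes. The lower members came from all 4 classes, and both higher ones were of class II. Among the lower ones, HAT14 Potri.009G023600 passed the filter on low values only through its WT drought libraries. OE drought and WT drought libraries did not overlap for 21 of the 48, beside 44.9% of all tested genes. The count of lower members was 7 without WT drought replicate 4 and 8 without OE drought replicate 5, 4 in a fit of only the drought groups, and 21 without the least alike library of 3 groups. With median-of-ratios scaling 3 were higher and 9 lower, beside 15.2% higher and 10.1% lower among all tested genes, so that the balance of the background turns with the scaling while lower members still outnumber higher ones. In class IV, GLABRA 2 Potri.003G052400 (log2 difference -1.24 ± 0.21, adjusted p = 0.0023), HDG2 Potri.002G230200 (log2 difference -1.52 ± 0.33, adjusted p = 0.00714) and GLABRA 2 Potri.001G184100 (log2 difference -1.07 ± 0.29, adjusted p = 0.0199) were lower in OE drought than in WT drought leaves, with the library values given above. The last of these calls did not hold in a fit of only the groups compared (adjusted p = 0.0983). PROTODERMAL FACTOR 2 Potri.004G020400 was lower too (log2 difference -1.26 ± 0.36, adjusted p = 0.0231), which did not hold with any 1 left out of WT drought replicates 4 and 5 and OE drought replicates 4 and 5 (adjusted p 0.065 to 0.0956) and in a fit of only the groups compared or with the replicate number as a block (adjusted p 0.0597 to 0.0699).

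**Figure D4:**
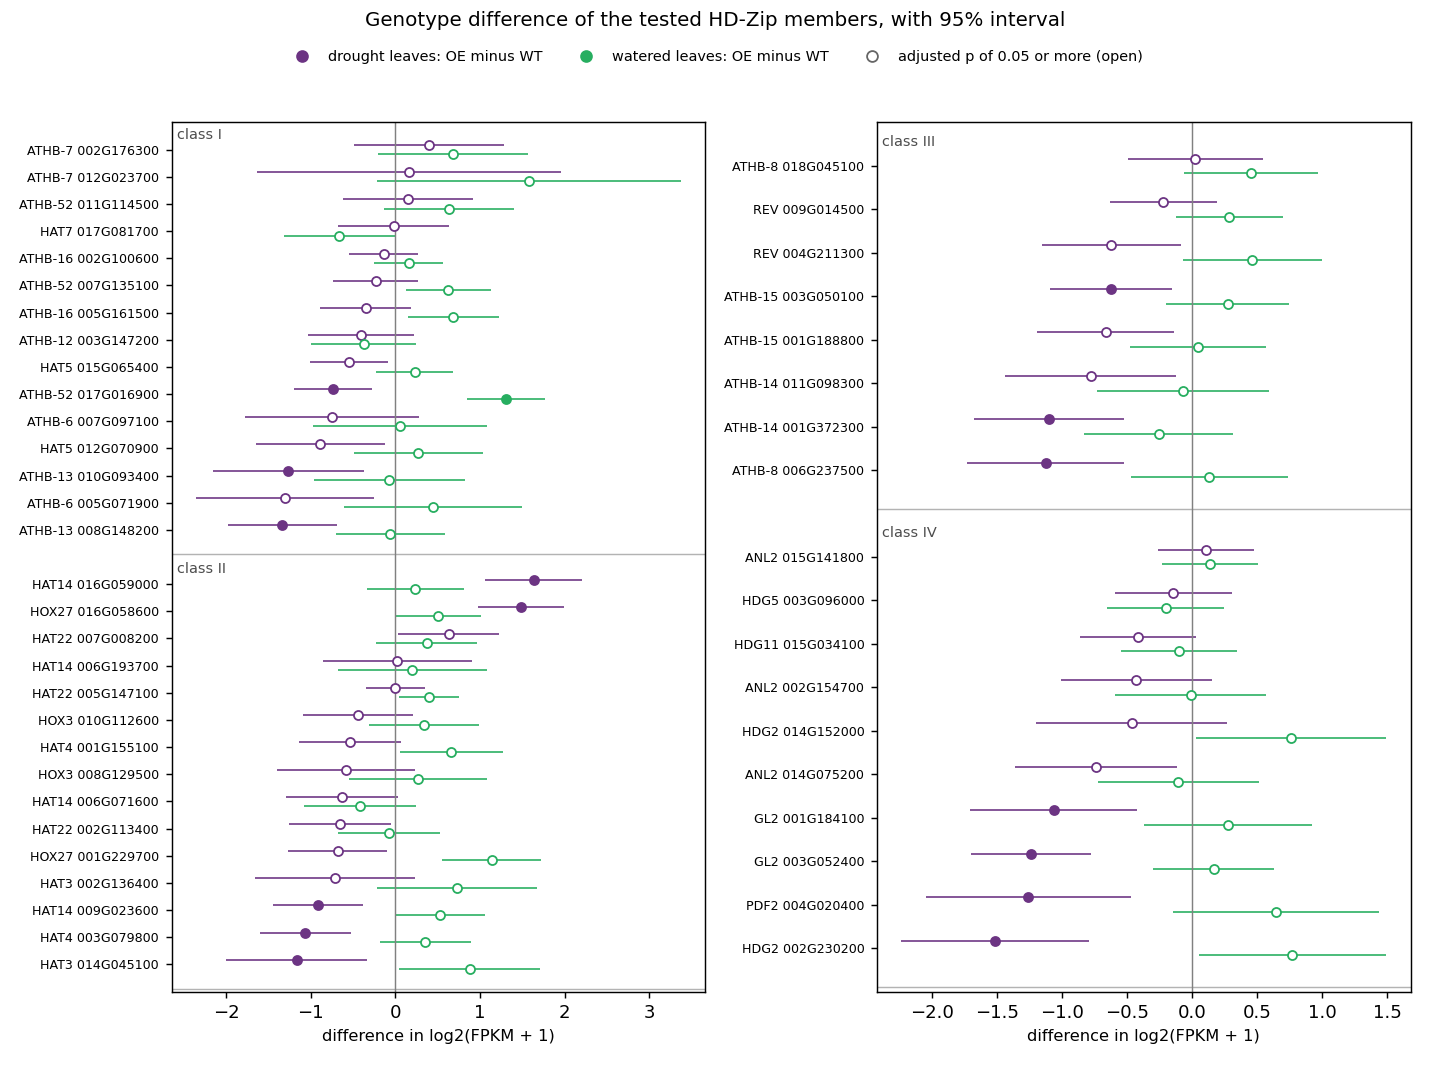
OE minus WT difference in log2(FPKM + 1) (x axis) of the 48 tested HD-Zip members (y axis), in drought leaves (purple) and watered leaves (green), with 95% intervals and filled points where the adjusted p was under 0.05. The 13 filled purple points left of 0 are spread over all classes, the 2 to the right are HAT14 and HOX27 genes 61036 bp apart on chromosome 16, and 1 green point is filled.

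In class III, ATHB-8 Potri.006G237500 (log2 difference -1.13 ± 0.28, adjusted p = 0.0117), ATHB-14 Potri.001G372300 (log2 difference -1.1 ± 0.26, adjusted p = 0.0106) and ATHB-15 Potri.003G050100 (log2 difference -0.62 ± 0.22, adjusted p = 0.0483) were lower in OE drought leaves. The ATHB-8 call did not hold without WT drought replicate 4 (adjusted p = 0.0518) and in a fit of only the groups compared (adjusted p = 0.0674), and the ATHB-15 call with any 1 left out of WT watered replicates 1, 2 and 3, WT drought replicates 4 and 5, OE watered replicates 1 and 2 and OE drought replicates 4, 5 and 6 (adjusted p 0.0558 to 0.177) and with no filter on low values, with median-of-ratios scaling, when scaled outside the 100 most abundant genes, in a fit of only the groups compared or with the replicate number as a block (adjusted p 0.051 to 0.158). In class I, ATHB-13 Potri.008G148200 was lower in OE drought than in WT drought leaves (log2 difference -1.34 ± 0.29, adjusted p = 0.00753), with no overlap of libraries. Its copy Potri.010G093400 was called as well (log2 difference -1.26 ± 0.41, adjusted p = 0.0377), and that call did not hold with any 1 left out of WT watered replicates 1, 2 and 3, WT drought replicate 6 and OE drought replicates 4 and 5 (adjusted p 0.0512 to 0.15) and with no filter on low values, with median-of-ratios scaling, with voom on recovered fragments, in a fit of only the groups compared or without the least alike library of 3 groups (adjusted p 0.0517 to 0.217). ATHB-52 Potri.017G016900, with 1.22, 0.479 and 0.932 FPKM in OE drought leaves, against 2.23, 2.38 and 1.69 FPKM in WT drought leaves, was lower (log2 difference -0.74 ± 0.21, adjusted p = 0.0232), opposite in sign to its difference in watered leaves. The drought call did not hold with any 1 left out of WT drought replicates 4 and 5 and OE drought replicate 5 (adjusted p 0.0676 to 0.0874) and with median-of-ratios scaling, with voom on recovered fragments, in a fit of only the groups compared or with the replicate number as a block (adjusted p 0.0524 to 0.065).

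In class II HAT14 Potri.016G059000 (log2 difference 1.63 ± 0.26, adjusted p = 0.00155) and HOX27 Potri.016G058600 (log2 difference 1.48 ± 0.23, adjusted p = 0.00141) were higher in OE drought than in WT drought leaves. All OE drought libraries of both lay above all WT drought ones, and both calls held under every alternative tried. HAT4 Potri.003G079800 was lower (log2 difference -1.06 ± 0.25, adjusted p = 0.00916), which did not hold in a fit of only the groups compared (adjusted p = 0.0666). HAT3 Potri.014G045100 was lower (log2 difference -1.16 ± 0.38, adjusted p = 0.0395), which did not hold with any 1 left out of WT watered replicates 1, 2 and 3, WT drought replicates 4 and 5, OE watered replicate 1 and OE drought replicates 4 and 5 (adjusted p 0.0519 to 0.159) and with no filter on low values, with median-of-ratios scaling, in a fit of only the groups compared or with the replicate number as a block (adjusted p 0.0586 to 0.149). HAT14 Potri.009G023600 stood at 0.45, 0.764 and 0.343 FPKM in OE drought, against 0.191, 0.974 and 0.627 in OE watered leaves. WT values were 2.34, 2.4 and 1.02 FPKM in WT drought, against 0.194, 0 and 0.0705 in WT watered leaves. Only the 3 WT drought libraries reached 1 FPKM, so that this gene was tested only through the group in which it was highest. Its calls against that group carry this limit. It was lower in OE drought than in WT drought leaves (log2 difference -0.91 ± 0.24, adjusted p = 0.0173), which did not hold with any 1 left out of WT drought replicates 4 and 5 and OE drought replicates 4 and 6 (adjusted p 0.0509 to 0.0689) and with a pseudocount of 0.1 or in a fit of only the groups compared (adjusted p 0.0515 to 0.0564).

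The interaction asks whether the drought difference itself was not the same in OE and WT. It passed for 11 of the 48 members, with a more negative drought difference in OE for 10 and a more positive one for 1, beside 10.5% and 4.58% of all tested genes. The median interaction was -0.82 over the members and -0.28 over all tested genes. The 10 came from all 4 classes. Their number was 18 without WT drought replicate 6, and 4 after leaving out WT watered replicate 2 or WT drought replicate 4. It was 6 after leaving out OE watered replicate 2, WT drought replicate 5 or WT watered replicate 3, and 16 without the least alike library of 3 groups. With median-of-ratios scaling, which moved the median of all tested genes to 0.04, 8 were more negative and 2 more positive, beside 4.16% more negative and 7.98% more positive among all tested genes, the reverse of their order without that scaling. The count of more positive members was also 2 without WT drought replicate 6, and 0 where HAT14 Potri.016G059000 lost its call, as given further on. The exception was the fit without OE watered replicate 3, where HAT7 Potri.017G081700 was called in its place (1.08, adjusted p = 0.0185). Other settings also added more negative calls outside the 11. Among these, ATHB-13 Potri.008G148200 passed with a pseudocount of 0.1 (-2.62, adjusted p = 0.0167) and of 0.5 (-1.75, adjusted p = 0.0303). It also passed with voom on recovered fragments (-2.95, adjusted p = 0.0359).

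Of the 11, 4 held their call under every alternative run for the interaction, which did not include a fit of only the groups compared. HDG2 Potri.002G230200 had an interaction of -2.29 ± 0.47, adjusted p = 0.0118, with a fall in OE and no call in WT. ATHB-52 Potri.017G016900 had -2.04 ± 0.30, adjusted p = 0.00296, with 1.22, 0.479 and 0.932 FPKM in OE drought, against 15.4, 10.8 and 11 in OE watered leaves. WT libraries had 2.23, 2.38 and 1.69 FPKM in WT drought, against 3.86, 3.96 and 5.36 in WT watered leaves. It was the highest of the 4 groups in OE watered leaves and the lowest in OE drought leaves. HOX27 Potri.001G229700 had -1.82 ± 0.38, adjusted p = 0.0128, and its OE watered libraries also lay above all others. GLABRA 2 Potri.003G052400 had -1.4 ± 0.30, adjusted p = 0.0143, and its OE drought libraries lay below all others.

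The other 7 depended on a library. HAT4 Potri.003G079800 (-1.42 ± 0.35, adjusted p = 0.023) lost its call with any 1 left out of WT watered replicate 2 and WT drought replicate 4 (adjusted p 0.0563 to 0.0619) and with the replicate number as a block (adjusted p = 0.0543). HAT14 Potri.009G023600 (-1.44 ± 0.35, adjusted p = 0.0216), tested only through its WT drought libraries, lost it with any 1 left out of WT watered replicate 2 and WT drought replicate 4 (adjusted p 0.0523 to 0.0578). HAT3 Potri.014G045100 (-2.04 ± 0.54, adjusted p = 0.0299) lost it with any 1 left out of WT watered replicates 1, 2 and 3, WT drought replicates 4 and 5, OE watered replicates 1 and 2 and OE drought replicate 5 (adjusted p 0.0523 to 0.0647) and with the replicate number as a block (adjusted p = 0.0594). PROTODERMAL FACTOR 2 Potri.004G020400 (-1.91 ± 0.51, adjusted p = 0.0314) lost it with any 1 left out of WT watered replicates 2 and 3, WT drought replicates 4 and 5, OE watered replicates 2 and 3 and OE drought replicates 4 and 5 (adjusted p 0.0521 to 0.0802) and with the replicate number as a block (adjusted p = 0.076). HAT14 Potri.016G059000, the one with a larger rise in OE (1.39 ± 0.37, adjusted p = 0.0298), lost it with any 1 left out of WT watered replicates 1 and 2, WT drought replicate 4, OE watered replicates 1 and 3 and OE drought replicates 4 and 5 (adjusted p 0.0514 to 0.0677) and with a pseudocount of 0.1, with a pseudocount of 0.5, with voom on recovered fragments or with the replicate number as a block (adjusted p 0.0511 to 0.113). ATHB-8 Potri.006G237500 (-1.26 ± 0.39, adjusted p = 0.0492) lost it with any 1 left out of WT watered replicates 1, 2 and 3, WT drought replicates 4 and 5, OE watered replicates 1, 2 and 3 and OE drought replicates 4, 5 and 6 (adjusted p 0.0652 to 0.111) and with a pseudocount of 0.1, with no filter on low values, with median-of-ratios scaling, when scaled outside the 100 most abundant genes, with voom on recovered fragments, without a variance trend or with the replicate number as a block (adjusted p 0.0501 to 0.148). GLABRA 2 Potri.001G184100 (-1.34 ± 0.42, adjusted p = 0.0499) lost it with any 1 left out of WT watered replicates 1, 2 and 3, WT drought replicates 4, 5 and 6 and OE watered replicates 1, 2 and 3 (adjusted p 0.0574 to 0.0955) and with a pseudocount of 0.1, with a pseudocount of 0.5, with no filter on low values, with median-of-ratios scaling, when scaled outside the 100 most abundant genes, with voom on recovered fragments, without a variance trend, with a robust variance or with the replicate number as a block (adjusted p 0.0514 to 0.113).

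Genes tied to the class III factors and to leaf sides were mostly lower in drought leaves. Of 18 tested genes described as leaf polarity factors or HD-Zip partners, 1 was higher and 14 lower in drought in OE and 1 higher and 11 lower in WT, with medians of -2.21 and -1.38, and 11 were lower and 1 higher in OE drought than in WT drought leaves. The shares of all tested genes, 27.8% higher and 35.0% lower in OE, 33.9% and 21.7% in WT and 9.23% and 20.4% between genotypes in drought leaves, are the background of this list and of those that follow. The rough sheath 2 homologue Potri.017G112300, named for a factor of leaf initiation, averaged 0.268 ± 0.0828 FPKM in OE drought and 35.5 ± 14.2 FPKM in OE watered leaves, and 1.22 ± 0.329 FPKM in WT drought and 48.9 ± 8.76 FPKM in WT watered leaves (SD, n = 3). It fell in OE (log2 difference -4.78 ± 0.25, adjusted p = 5.27e-08) and in WT (-4.49 ± 0.25, adjusted p = 1.54e-07). YABBY 1 Potri.003G112800, of the lower leaf side, fell by 3.37 in WT (adjusted p = 8.83e-07). LITTLE ZIPPER 2 Potri.014G071200, from a family of small proteins that pair with class III factors and block them, was the gene that rose in OE, at 10.8 ± 2.14 FPKM in OE drought and 2.2 ± 0.831 FPKM in OE watered leaves (log2 difference 1.91 ± 0.32, adjusted p = 2.59e-04). It averaged 1.99 ± 0.349 FPKM in WT drought leaves, and its interaction was 2.1 ± 0.45, adjusted p = 0.0142.

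Epidermis and trichome genes other than HD-Zip moved both ways, with 6 higher and 7 lower in OE and 3 higher and 7 lower in WT among 15 tested. The hair factor GIS, at Potri.006G195100, fell in OE (log2 difference -4.4 ± 0.21, adjusted p = 3.21e-08) and in WT (-3.15 ± 0.21, adjusted p = 4.72e-07), and the hair inhibitor ETC1, at Potri.004G021300, rose in OE (1.92 ± 0.28, adjusted p = 9.7e-05) and in WT (3.32 ± 0.28, adjusted p = 3.02e-06). The interaction of ETC1 Potri.004G021300 was -1.4 ± 0.40, adjusted p = 0.0375. Among 12 tested shade and light genes, which include the PIF factors upstream of HAT4, 1 was higher and 9 lower in OE and 1 higher and 5 lower in WT. PIF4 Potri.005G207200 fell in OE (-3.54 ± 0.20, adjusted p = 7.99e-08) and in WT (-2.96 ± 0.20, adjusted p = 5.0e-07). Of 14 tested vascular patterning genes, 3 were higher and 9 lower in each genotype, and Auxin response factor 5 Potri.002G024700, whose Arabidopsis namesake activates ATHB-8, rose in OE (2.74 ± 0.28, adjusted p = 5.35e-06) and in WT (2.62 ± 0.28, adjusted p = 1.51e-05).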

How the data were processed

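Leaf messenger RNA of 12 libraries was analysed, 3 in each group of genotype and watering given by the labels. Per the labels, RNA was isolated with Trizol and 2 µg of RNA went into each NEBNext Ultra library, a kit that does not mark strand, read as 150 bp pairs. Bowtie2 2.2.3 and HISAT2 2.1.0 are listed in the submitters' processing notes with no role given. No source used here names the counting tool or genome build. The authors deposited FPKM values with gene positions and descriptions. A second deposited FPKM table of 16749 genes, all in the first, was not used. Low FPKM values step by what 1 fragment is worth, and this gave whole fragments for all 35747 genes within a tolerance of 0.02 in every library, used for depth and for an alternative fit with limma's voom.

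Genes reaching 1 FPKM in 3 or more libraries (25373) entered limma 3.58.1 (R 4.3.3) as log2(FPKM + 1), in a model of the 4 groups with 8 residual degrees of freedom and a variance trend, and results were summarised with Python 3.11.15. The Benjamini-Hochberg adjustment ran over every tested gene, separately for each contrast, and 0.05 was the threshold. The script was tested on simulated data with known changes. Those data had the same spread in every group, unlike the libraries here, so that the test does not give the error rate of these calls. Alternatives were other pseudocounts, no filter, other scalings, voom, a fold threshold, fits of the groups compared, other variance models, the replicate number as a block, each library left out, and, added after the data were seen, the least alike library of WT drought (replicate 6), OE watered (replicate 2) and OE drought (replicate 5) left out together. Pairs of replicates within a group differed in their counts by 3.69 to 66.5 per gene in chi-square, above the 1 of sampling noise. The lowest value was that of OE drought replicates 4 and 6, against 28.1 and 41.7 for the other pairs of that group. No pair was merged, and the values do not show whether libraries came from separate plants.

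Members follow the description rule. For each class and comparison the up to 4 called members with the largest change in each direction, the 2 most abundant members and those called between genotypes or in the interaction have library values, in part given once for several comparisons. Companion lists of genes came from words in the descriptions, and at most 2 genes per direction and comparison are named from each. The members and lists were chosen with earlier results of these data known. No sequences or genome were used here.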

Additional observations from a re-analysis of the deposited data

Results flagged for a closer look

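Members are listed here because the drought difference in OE differed from that in WT by the interaction test of limma (OE drought difference minus WT drought difference in log2(FPKM + 1), adjusted p under 0.05). In class IV the interaction was -2.29 for HDG2 Potri.002G230200, -1.91 for PROTODERMAL FACTOR 2 Potri.004G020400, -1.40 for GLABRA 2 Potri.003G052400 and -1.34 for GLABRA 2 Potri.001G184100. In class II it was -2.04 for HAT3 Potri.014G045100, -1.82 for HOX27 Potri.001G229700, -1.44 for HAT14 Potri.009G023600, -1.42 for HAT4 Potri.003G079800 and 1.39 for HAT14 Potri.016G059000. In class I it was -2.04 for ATHB-52 Potri.017G016900, and in class III it was -1.26 for ATHB-8 Potri.006G237500. In the same test 10.5% of all tested genes were more negative in OE and 4.58% more positive (4.16% and 7.98% with median-of-ratios scaling), and what lies behind the differences was not tested. Only 4 of the 11 calls held under every alternative run for the interaction. They were those of HDG2 Potri.002G230200, ATHB-52 Potri.017G016900, HOX27 Potri.001G229700 and GLABRA 2 Potri.003G052400. HAT14 Potri.009G023600 was tested only through its WT drought libraries, and the values of GLABRA 2 Potri.001G184100 are uncertain through an overlapping gene.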

How the results depend on the processing

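No member's called difference changed sign under any alternative. Of the calls, 31 of 36 held under every alternative but the fold threshold for drought in OE, 21 of 30 for drought in WT, 6 of 15 for OE against WT in drought leaves, 4 of 11 for the interaction and 0 of 1 in watered leaves. With the fold threshold (log2 difference of at least 1) as well, these became 27, 16, 6, 4 and 0. The comparisons did not all meet the same alternatives. The replicate block was fitted only for OE against WT and the interaction. The fit of only the groups compared was not run for the interaction. Counts of members moved as follows. For drought in WT, a log2 difference of at least 1 gave 11 higher and 8 lower, and median-of-ratios scaling 20 lower. For OE against WT in watered leaves, 0 were higher with a pseudocount of 0.1 or 0.5, no filter, median-of-ratios scaling, voom, a fit of the groups compared or the replicate block, and leaving out a library gave 0 to 1 higher and 0 to 1 lower. For OE against WT in drought leaves, lower members numbered 4 in a fit of the groups compared, 21 without the least alike library of 3 groups, and 7 to 19 when a library was left out. For the interaction, 0 were more positive with a pseudocount of 0.1 or 0.5, voom or the block, 2 with no filter, median-of-ratios scaling or without the least alike libraries, and 0 to 2 when a library was left out. More negative ones numbered 6 with the block, 16 without the least alike libraries, and 4 to 18 when a library was left out. Replicate numbers are shared between OE and WT, but same-numbered libraries did not deviate together (r of 0.01, -0.50 and -0.02 in watered and -0.05, 0.22 and 0.13 in drought leaves), so the block is given as a hint only. The causes were not tested. A planned search for promoter motifs was not run. At 9.68 to 12.1 fragments per FPKM and kilobase, members under 1 FPKM carry large counting error.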

Other observations

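Other homeobox families of the leaf were set beside the HD-Zip genes by their descriptions. Zinc-finger homeodomain genes, which include regulators of leaf and flower growth, were lower for 12 and higher for 0 of 15 tested in OE drought against OE watered leaves, and lower for 9 and higher for 0 in WT, beside 35.0% and 21.7% of all tested genes lower. Zinc-finger homeodomain protein 11 Potri.015G032700 fell in OE (log2 difference -3.44 ± 0.32, adjusted p = 2.58e-06) and in WT (-3.49 ± 0.32, adjusted p = 4.97e-06). Between genotypes in drought leaves 1 was higher in OE, Zinc-finger homeodomain protein 3 Potri.004G135100 (1.66 ± 0.27, adjusted p = 0.00177), and 5 were lower. BEL1-like genes moved both ways, with 3 higher and 8 lower of 16 in OE and 4 higher and 4 lower in WT. Homeobox protein ATH1 Potri.018G054700 fell in OE (-3.79 ± 0.28, adjusted p = 5.91e-07) and in WT (-3.36 ± 0.28, adjusted p = 2.94e-06), while BEL1-like homeodomain protein 3 Potri.002G031000 rose in OE (1.7 ± 0.26, adjusted p = 1.45e-04) with an interaction of 1.7 ± 0.37, adjusted p = 0.0153. Of 5 tested KNOX genes, 1 was higher and 4 lower in OE and 1 higher and 2 lower in WT. Of 6 tested WUSCHEL-related genes, 2 were higher and 4 lower in each genotype, among them WUSCHEL-related homeobox 4 Potri.014G025300, known from the vein meristem of Arabidopsis, which fell in OE (-1.93 ± 0.21, adjusted p = 1.18e-05) and in WT (-1.97 ± 0.21, adjusted p = 1.92e-05).

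Markers of other cell types moved with drought as well, beside 27.8% higher and 35.0% lower of all tested genes in OE and 33.9% and 21.7% in WT. Phloem genes were lower for 15 and higher for 3 of 18 in OE and lower for 13 and higher for 1 in WT, and xylem genes were lower for 20 and higher for 2 of 31 in OE and lower for 24 and higher for 1 in WT. Genes of dividing cells were lower for 9 of 14 in OE and 8 in WT, with 1 higher in each. Guard cell genes were lower for 2 of 3 in OE and 1 in WT. Epidermal genes of wax and cutin were lower for 2 and higher for 0 of 6 in OE and lower for 4 and higher for 2 in WT. Genes described as pollen or tapetum genes were lower for 6 of 7 in OE and 4 in WT. This list was planned as one that leaves should lack. Its sums were 51.5 to 61.1 FPKM in OE drought and 133 to 434 FPKM in OE watered leaves. In WT they were 65.6 to 117 FPKM in drought and 315 to 400 FPKM in watered leaves. A description therefore does not mark a cell type by itself here. The 5 shoot meristem genes summed to at most 1.94 FPKM in any library and were not tested.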
